A study of Homo sapiens with 2 samples.

Results

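The human tropomyosin genes TPM1, TPM2, TPM3 and TPM4 were followed in a single-cell long-read library of ovarian cancer cells. The members are the 4 of 57110 gene entries that carry these names in the deposited transcript list. They hold 31 of its 99493 transcripts, and 29 of the 31 had at least 1 count in the library. The sample was 1 pool of the established ovarian cancer lines IGROV1, SK-OV-3 and COV504, trypsinised and mixed in equal parts, with no treatment named. Single-cell RNA of the pool was sequenced as 1 library on an Illumina instrument and 1 library on a nanopore PromethION instrument, to benchmark a package that quantifies transcripts from long reads. Only the barcode list of the Illumina library was used, and all 2462 barcodes were in both lists. With 1 library per platform there is no replicate, so no test is given, and every interval is a 95% interval that covers counting error only.

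Tropomyosins are coiled-coil proteins that lie end to end along the actin filament and control which other proteins, such as myosin and cofilin, can reach it. In muscle they work with troponin to switch contraction on and off, and in other cells different forms mark different filament populations, such as stress fibres. Each gene makes several forms: an upstream promoter gives long proteins, an internal promoter, where the gene has one, gives short ones, and alternative exons in the middle and at the end vary them further. A lower level of long forms is a widely described feature of transformed cells.

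The pool was split by the genes of its lines, without use of the tropomyosins. A barcode with at least 1000 counts was put in a line where 1 of 3 sets of genes held at least 75% of the counts of all 10 line genes. The sets were ERBB2, NNMT, TSPAN1 and DHRS2 for the ERBB2-high line, RARRES2 and TMEM100 for the RARRES2-high line, and FOLR1, CLDN3, DEFB1 and CXCL14 for the FOLR1-high line. They took in 648, 473 and 765 barcodes, with median depths of 4953, 6262 and 5289 counts and sums of 3442383, 3377992 and 4514999 counts. Of the other 576 barcodes, 333 had under 1000 counts. The top set held 65% to under 75% of the line-gene counts in 97 barcodes just outside a line, and 75% to under 85% in 223 just inside. The ERBB2-high line was SK-OV-3-like: GRB7, MIEN1, STARD3 and PGAP3, neighbours of ERBB2 that the rule did not use, were highest there. CDKN2A, looked for as absent from SK-OV-3, had 1, 0 and 88 counts in the ERBB2-high, RARRES2-high and FOLR1-high lines, so it did not set the ERBB2-high line apart. The other two lines are left without a cell line name: of the IGROV1 markers, PAX8 was highest in the FOLR1-high line, as were FOLR1 and CLDN3, which the rule used, but CDH1 and ESRP1 were highest in the RARRES2-high line. Leukocyte markers summed to at most 1 count per line. Muscle markers MYH7 and DES were at 0 counts in every line and CKM had 1 count, whereas TNNT1, slow skeletal troponin T, was at 34.9, 158 and 218 CPM (counts per 1000000 counts of the line) in the ERBB2-high, RARRES2-high and FOLR1-high lines. TNNT2, cardiac troponin T, had 2, 6 and 7 counts. Of 5 fibroblast markers, DCN was at 0 counts in every line and COL3A1 had 1 count in all, while COL1A1 was at 95.6, 23.4 and 3.32 CPM, COL1A2 had 45, 14 and 0 counts and LUM had 8, 0 and 0 counts in the ERBB2-high, RARRES2-high and FOLR1-high lines. Summed, the fibroblast markers were at 111, 27.8 and 3.32 CPM, and their part in the tropomyosin levels was not tested.

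The genes lie on 4 chromosomes of GRCh38, the build in the submitters' processing notes: TPM1 (ENSG00000140416) on chr15:63042632-63071915, plus strand; TPM2 (ENSG00000198467) on chr9:35681992-35691020, minus strand; TPM3 (ENSG00000143549) on chr1:154155304-154192211, minus strand; TPM4 (ENSG00000167460) on chr19:16067507-16103005, plus strand. All 31 transcripts matched GENCODE release 29 by Ensembl identifier, which gave their exons. The first coding exons, which set long against short forms, are shown here for TPM1 and TPM4, where the lines used them most differently. Each is the coding part on the sense strand, 5′ to 3′, with the start codon in capitals. The upstream exon (chr15:63042830-63042943) holds 114 coding bases and the internal exon (chr15:63048576-63048707) holds 132, and in TPM1 they lie 5.63 kb apart. In TPM4 the exons (chr19:16067625-16067738 and chr19:16076566-16076697) have the same lengths and lie 8.83 kb apart.
TPM1 upstream first exon: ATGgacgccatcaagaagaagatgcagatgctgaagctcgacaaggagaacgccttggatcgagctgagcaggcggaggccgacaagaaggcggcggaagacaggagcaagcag
TPM4 upstream first exon: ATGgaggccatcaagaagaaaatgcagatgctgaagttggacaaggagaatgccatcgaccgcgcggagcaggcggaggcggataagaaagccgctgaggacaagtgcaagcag
TPM1 internal first exon: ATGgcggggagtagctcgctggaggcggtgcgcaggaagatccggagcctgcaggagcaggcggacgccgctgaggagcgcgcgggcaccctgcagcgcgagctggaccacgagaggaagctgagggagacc
TPM4 internal first exon: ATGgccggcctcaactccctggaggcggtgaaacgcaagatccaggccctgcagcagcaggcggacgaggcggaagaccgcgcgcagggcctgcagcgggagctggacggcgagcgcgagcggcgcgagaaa
Across the genes the upstream exon was the more alike: TPM1 and TPM4 had the same base at 96 of its 114 positions (84.2%) and at 95 of 132 positions (72.0%) of the internal exon. The leading long TPM1 transcript, ENST00000358278, has 852 coding bases and the leading short one, ENST00000404484, has 744.

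**Figure D1:**
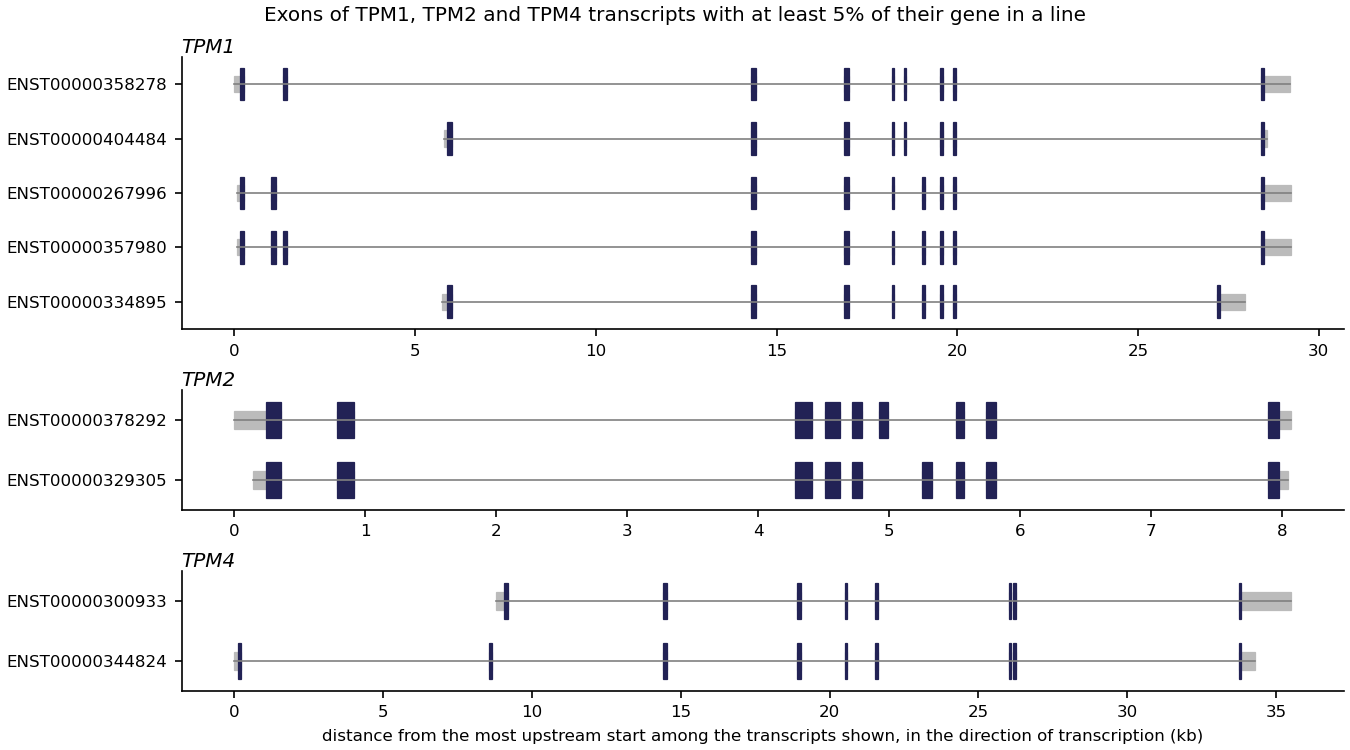
Exons of the TPM1, TPM2 and TPM4 transcripts that held at least 5% of their gene's counts in a line, drawn to scale by distance (kb) from the most upstream start shown, with coding parts tall and dark and untranslated parts low and grey. TPM1 and TPM4 each start from an upstream and an internal first exon, and the TPM2 transcripts differ by 1 exon of a pair.

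The RARRES2-high line held the most tropomyosin RNA. Counts of the 4 genes together were 3145 CPM there (interval 3085 to 3205), against 1497 CPM (1456 to 1538) in the ERBB2-high line and 1487 CPM (1452 to 1523) in the FOLR1-high line. The likeness of the last 2 sums holds for total counts, and the sums were not computed under other scalings. Mitochondrial and ribosomal protein genes took 15.4% of the total in the ERBB2-high line and 34.6% in the FOLR1-high line. The lines differed in which gene was low: TPM1 was low in the ERBB2-high line, and TPM2 was close to absent in the FOLR1-high line.

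TPM1, alpha-tropomyosin, was at 226 CPM (210 to 242) in the ERBB2-high line, 1053 CPM (1019 to 1088) in the RARRES2-high line and 992 CPM (963 to 1022) in the FOLR1-high line. The ERBB2-high line stood apart from the other two, whose intervals overlap. TPM1 was 4.67-fold higher in the RARRES2-high than in the ERBB2-high line (4.32 to 5.05) and 4.40-fold higher in the FOLR1-high than in the ERBB2-high line (4.07 to 4.75). The RARRES2-high line was 1.06-fold above the FOLR1-high line (1.02 to 1.11), a direction that flipped to 0.85-fold when mitochondrial and ribosomal protein genes were left out of the totals and to 0.93-fold with median-of-ratios scaling. Those gene groups took 15.4% of the counts in the ERBB2-high line, 18.7% in the RARRES2-high line and 34.6% in the FOLR1-high line. At least 1 TPM1 count was seen in 47.5%, 93.2% and 89.9% of barcodes of the ERBB2-high, RARRES2-high and FOLR1-high lines, and in 27.6%, 76.1% and 74.9% of those with at least 2000 counts after thinning to that depth, which left out 42, 30 and 32 barcodes.

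TPM2, beta-tropomyosin, was at 472 CPM (450 to 496) in the ERBB2-high line, 795 CPM (765 to 826) in the RARRES2-high line and 9.08 CPM (6.52 to 12.3) in the FOLR1-high line. Those 9.08 CPM were 41 counts in 23 of 765 barcodes, with at most 5 in a barcode. TPM2 was therefore 87.6-fold higher in the RARRES2-high than in the FOLR1-high line (64.4 to 122) and 52.0-fold higher in the ERBB2-high than in the FOLR1-high line (38.2 to 72.8). By size of log2 ratio after adding 10 CPM, TPM2 ranked 6th of 9100 genes in the first of these comparisons and 12th of 9237 in the second. Barcodes with a TPM2 count were 59.0%, 92.4% and 3.01% of the ERBB2-high, RARRES2-high and FOLR1-high lines, and 46.5%, 73.1% and 1.36% after thinning. Between the lines that held it, TPM2 was 1.68-fold higher in the RARRES2-high line (1.58 to 1.79).

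TPM3, gamma-tropomyosin, was at 361 CPM (341 to 382), 663 CPM (636 to 691) and 279 CPM (264 to 295) in the ERBB2-high, RARRES2-high and FOLR1-high lines. The RARRES2-high line was 1.84-fold above the ERBB2-high line (1.71 to 1.97) and 2.38-fold above the FOLR1-high line (2.22 to 2.55). The ERBB2-high line was 1.29-fold above the FOLR1-high line (1.19 to 1.40), which turned to 0.953-fold with median-of-ratios scaling. TPM3 therefore has a top line but no stable order of the lower pair. A TPM3 count was seen in 74.7%, 90.5% and 68.2% of barcodes of the ERBB2-high, RARRES2-high and FOLR1-high lines (52.0%, 68.4% and 38.7% thinned).

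TPM4, delta-tropomyosin, was at 437 CPM (416 to 460), 633 CPM (606 to 660) and 206 CPM (193 to 220) in the ERBB2-high, RARRES2-high and FOLR1-high lines, with no overlap between the intervals. The RARRES2-high line was 1.45-fold above the ERBB2-high line (1.35 to 1.55) and 3.07-fold above the FOLR1-high line (2.84 to 3.31), and the ERBB2-high line was 2.12-fold above the FOLR1-high line (1.95 to 2.30). A TPM4 count was seen in 78.9%, 90.5% and 58.8% of barcodes of the ERBB2-high, RARRES2-high and FOLR1-high lines (53.8%, 69.8% and 31.9% thinned).

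Set against all genes, the count of tropomyosins past 2-fold was highest against the FOLR1-high line. Genes with at least 50 counts over both lines were compared, and called at 2-fold after 10 CPM were added to each. TPM2, TPM3 and TPM4 were called higher in the RARRES2-high than in the FOLR1-high line, where 13.5% of genes were, and none was called the other way, where 7.23% were. TPM2 and TPM4 were called higher in the ERBB2-high than in the FOLR1-high line, where 13.7% of genes were, and TPM1 was called lower, where 5.50% were. TPM1 alone was called higher in the RARRES2-high than in the ERBB2-high line, where 8.41% of genes were, and none was called lower, where 11.0% were. The median log2 ratio of all genes was -0.15 for RARRES2-high over ERBB2-high, 0.13 for RARRES2-high over FOLR1-high and 0.31 for ERBB2-high over FOLR1-high, which can be read beside each ratio. The ERBB2-high to FOLR1-high log2 ratio of TPM3, 0.36 on the same scale, lies close to that median. Scaling ended 2 of these calls: without mitochondrial and ribosomal protein genes TPM4 in the ERBB2-high over the FOLR1-high line was 1.64-fold (1.56-fold with median-of-ratios scaling), and TPM3 in the RARRES2-high over the FOLR1-high line was 1.91-fold. Median-of-ratios scaling also took the plain ratios of the RARRES2-high over the ERBB2-high line to 2.18 for TPM3 and 2.001 for TPM2, so that TPM1 was then not alone there.

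**Figure D2:**
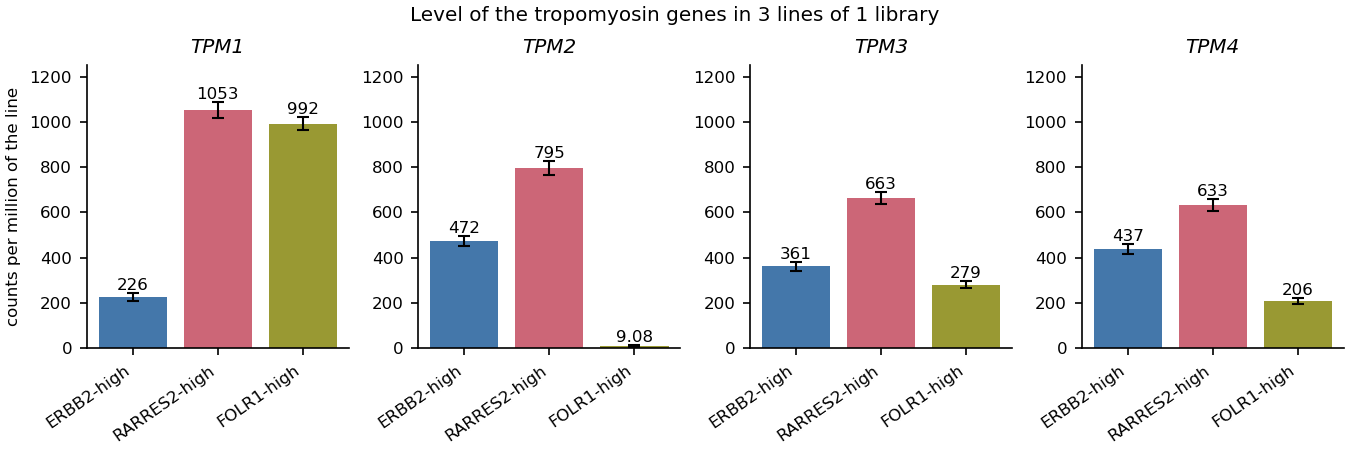
Level of each tropomyosin gene in CPM (bars, labelled with their value) with exact Poisson 95% intervals, for the ERBB2-high, RARRES2-high and FOLR1-high lines. TPM1 is lowest in the ERBB2-high line, and TPM2 is at 9.08 in the FOLR1-high line.

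The choice of promoter in TPM1 differed between the lines. Transcripts from the upstream first exon held 47.7% (44.2 to 51.3) of the 777 TPM1 counts in the ERBB2-high line, 94.4% (93.5 to 95.1) of 3558 in the RARRES2-high line and 82.9% (81.8 to 84.0) of 4480 in the FOLR1-high line. The RARRES2-high line was 46.6 percentage points above the ERBB2-high line (43.0 to 50.2) and 11.5 points above the FOLR1-high line (10.1 to 12.8). As levels, the upstream form was at 108 CPM (97.1 to 119), 994 CPM (960 to 1028) and 823 CPM (796 to 849) in the ERBB2-high, RARRES2-high and FOLR1-high lines, and the internal form at 118 CPM (107 to 130), 59.5 CPM (51.6 to 68.3) and 170 CPM (158 to 182). By these estimates the low TPM1 level of the ERBB2-high line lay in the upstream form, and its internal form lay between those of the other two lines. Most TPM1 estimates were not whole numbers, and the upstream share moved with the number of TPM1 counts in a barcode. Both limits are described below. The exons are the ones printed above, with the start codons in capitals.

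Of the TPM1 transcripts, 5 held at least 5% of the gene in a line. ENST00000358278, from the upstream exon and with 852 coding bases, held 23.8%, 72.5% and 59.2% in the ERBB2-high, RARRES2-high and FOLR1-high lines. ENST00000404484, from the internal exon and with 744 coding bases, held 39.3%, 4.45% and 13.9%. ENST00000334895, also internal but with another last exon, held 6.30%, 0.525% and 1.55%. Both internal transcripts had their highest share in the ERBB2-high line, but not their highest level. As levels, ENST00000404484 was at 88.7, 46.8 and 138 CPM in the ERBB2-high, RARRES2-high and FOLR1-high lines. ENST00000334895 was at 14.2, 5.53 and 15.4 CPM. ENST00000267996, an upstream form with the other second exon and the other exon of the pair in the middle of the gene, was steadier at 8.36%, 6.50% and 7.39%. ENST00000357980, which carries both second exons in 1 transcript, held 5.59%, 3.30% and 3.10%. The largest TPM1 share difference, 48.7 points for ENST00000358278 between the RARRES2-high and ERBB2-high lines, ranked 6th of 4245 genes, whose median largest difference was 3.20 points. Among whole estimates, defined next, it was 22.6 points (14.7 to 29.6), and in barcodes with 1 TPM1 count 30.2 points.

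Most TPM1 estimates were not whole numbers, as happens where a read fits several transcripts. Only 160 counts in the ERBB2-high line (20.6%), 268 in the RARRES2-high line (7.53%) and 452 in the FOLR1-high line (10.1%) were whole, meaning that a transcript's estimate in a barcode lay within 0.01 of a whole number of at least 1. Among whole counts, the upstream exon held 36.3% (28.8 to 44.2), 84.7% (79.8 to 88.8) and 68.4% (63.9 to 72.6) in the ERBB2-high, RARRES2-high and FOLR1-high lines. Whole counts do not sample the forms evenly, so these shares are no independent check: 15.6%, 6.76% and 8.32% of the upstream-form counts were whole in the ERBB2-high, RARRES2-high and FOLR1-high lines, against 25.1%, 20.4% and 18.7% of the internal-form counts.

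The TPM1 share also moved with the number of TPM1 counts in a barcode. In the ERBB2-high line the upstream exon held 26.0% (19.5 to 33.6) of the counts in barcodes with 1 TPM1 count, 37.1% (31.6 to 43.2) in those with 2 to 4, and 67.2% (61.7 to 72.1) in the 39 barcodes with 5 or more. In the RARRES2-high line the shares were 78.8%, 85.2% and 95.7%, and in the FOLR1-high line 64.8%, 71.0% and 85.7%. By these estimates the upstream share rose with the TPM1 counts of a barcode in all 3 lines. The ERBB2-high line was lowest at each count. The upstream form is part of the count that sorts the barcodes, so the sorting and the share are not independent. Whole counts of the ERBB2-high line moved the same way, at 3 of 49, 23 of 70 and 32 of 41. Whole counts did not follow that order in the RARRES2-high line, at 13 of 15, 50 of 66 and 164 of 187, or beyond the first step in the FOLR1-high line, at 19 of 34, 94 of 133 and 196 of 285. At 5 or more TPM1 counts the whole counts put the ERBB2-high line, at 78.0%, above the FOLR1-high line, at 68.8%. In barcodes with 5 or more TPM1 counts the RARRES2-high line was 28.5 points above the ERBB2-high line (23.8 to 33.9), fewer than the 46.6 points over all barcodes. With doublet calls left out and the line genes at 90%, the difference over all barcodes was 49.3 points (45.3 to 53.4).

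Among barcodes with at least 5 TPM1 counts, the median upstream share was 66.7% in 39 barcodes of the ERBB2-high line (quartiles 46.4% and 83.6%), 100% in 254 of the RARRES2-high line and 87.0% in 341 of the FOLR1-high line. The upstream form passed 90% in 8 of the 39, 188 of the 254 and 137 of the 341 barcodes. These shares rest mostly on divided estimates: whole counts of both TPM1 forms were found in 4 barcodes of the ERBB2-high line, 7 of the RARRES2-high line and 29 of the FOLR1-high line.

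The middle of TPM1 and TPM2 holds a pair of mutually exclusive exons of 76 bases. They are printed here because the choice differed most in TPM2. Bases that differ within a pair are in capitals, sense strand, 5′ to 3′. TPM2 upstream lies at chr9:35685064-35685139 and downstream at chr9:35684732-35684807, and TPM1 upstream at chr15:63061198-63061273 and downstream at chr15:63061713-63061788.
TPM2 upstream exon: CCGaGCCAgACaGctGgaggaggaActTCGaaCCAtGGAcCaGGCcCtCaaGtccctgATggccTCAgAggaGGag
TPM2 downstream exon: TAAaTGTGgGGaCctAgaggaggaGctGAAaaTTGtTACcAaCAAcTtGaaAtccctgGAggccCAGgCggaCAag
TPM1 upstream exon: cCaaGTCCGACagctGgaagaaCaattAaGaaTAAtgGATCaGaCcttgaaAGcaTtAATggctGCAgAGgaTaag
TPM1 downstream exon: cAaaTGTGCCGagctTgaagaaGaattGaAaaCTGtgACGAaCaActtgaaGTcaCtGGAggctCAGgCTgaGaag
The exons of a pair matched at 40 of 76 positions in TPM2 (52.6%) and 43 of 76 in TPM1 (56.6%). Between the genes, the upstream exons matched at 68.4% and the downstream exons at 77.6% of positions, so each exon was closer to its counterpart in the other gene than to its own partner.

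TPM2 used the downstream exon most in the RARRES2-high line. It held 13.0% (11.4 to 14.7) of 1626 TPM2 counts in the ERBB2-high line and 43.4% (41.6 to 45.3) of 2686 in the RARRES2-high line, a difference of 30.5 points (27.9 to 32.9). In the FOLR1-high line 8 of 41 counts had it (19.5%, 8.82 to 34.9), too few to place that line between the others. As levels, the upstream-exon form was at 411 CPM (390 to 433) in the ERBB2-high line and 450 CPM (427 to 473) in the RARRES2-high line, while the downstream-exon form was at 61.3 CPM (53.3 to 70.1) and 345 CPM (326 to 366). The upstream-exon intervals overlap, and the higher TPM2 level of the RARRES2-high line lay mostly in the downstream-exon form.

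TPM2 estimates were more often whole than those of TPM1. In the ERBB2-high line 85.1% of TPM2 counts were whole and in the RARRES2-high line 58.8%, and whole counts gave the downstream exon 10.9% (9.32 to 12.7) and 36.2% (33.9 to 38.7). These shares are no independent check, since the forms were whole unequally. Downstream-exon counts were whole in 71.5% and 49.0% of cases in these lines, and upstream-exon counts in 87.1% and 66.3%. Most of the downstream-exon form came from ENST00000329305, at 12.4%, 42.9% and 19.5% of TPM2 in the ERBB2-high, RARRES2-high and FOLR1-high lines, and most of the rest of TPM2 was ENST00000378292, at 86.4%, 55.7% and 80.5%. Skeletal muscle TPM2 joins the downstream exon to an earlier last exon, and the transcript with both, ENST00000360958, held 0.591% in the ERBB2-high line, 0.575% in the RARRES2-high line and 0 of 41 counts in the FOLR1-high line (up to 8.60%). The downstream exon was therefore joined to the later last exon in nearly all of its counts. In single barcodes with at least 5 TPM2 counts, its median share was 11.1% in 139 barcodes of the ERBB2-high line and 43.7% in 234 of the RARRES2-high line, and it passed 50% in 1 and in 79 of them. In the ERBB2-high line whole counts of both forms were found in 97 barcodes, and in the RARRES2-high line in 187.

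The TPM1 pair did not give a stable difference. Its downstream exon held 26.5%, 16.2% and 16.8% of TPM1 in the ERBB2-high, RARRES2-high and FOLR1-high lines, but 20.6%, 31.3% and 25.7% of whole counts, which reverses the order of the ERBB2-high and RARRES2-high lines. Here too the forms were whole unequally: counts with the upstream exon of the pair were whole in 21.1% and 5.22% of cases in the ERBB2-high and RARRES2-high lines, and those with the downstream exon in 16.1% and 14.6%.

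TPM4 made almost only its short form in the ERBB2-high and FOLR1-high lines, and both forms in the RARRES2-high line. The upstream transcript ENST00000344824 held 0.286% (0.0724 to 0.679) of 1506 TPM4 counts in the ERBB2-high line, 16.7% (15.1 to 18.3) of 2138 in the RARRES2-high line and 0.554% (0.174 to 1.25) of 932 in the FOLR1-high line. The RARRES2-high line was 16.4 points above the ERBB2-high line (14.8 to 18.1). The short transcript ENST00000300933 held the other 99.7%, 83.3% and 99.4%. As a level the upstream form was at 1.25 CPM (0.317 to 2.98), 106 CPM (95 to 117) and 1.14 CPM (0.360 to 2.58), and the short form at 436, 527 and 205 CPM in the ERBB2-high, RARRES2-high and FOLR1-high lines.

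TPM4 estimates were mostly whole: 97.5%, 82.7% and 97.6% of its counts were whole in the ERBB2-high, RARRES2-high and FOLR1-high lines. A whole count of the upstream form was found in 2 of 648 barcodes of the ERBB2-high line, 159 of 473 of the RARRES2-high line and 2 of 765 of the FOLR1-high line. In 151 of the 159 the same barcode also held a whole count of the short form. All 3 lines of the pool carried the short form, and the part of free RNA in these barcodes was not tested. The share in the RARRES2-high line changed little with depth of the gene, at 14.5% (6.50 to 26.7), 14.1% (11.3 to 17.4) and 17.7% (15.8 to 19.7) in barcodes with 1, 2 to 4 and 5 or more TPM4 counts. The median in 186 barcodes with at least 5 counts was 14.9% (quartiles 0% and 28.6%), and 69 of them had none.

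The promoter of this long TPM4 form is printed because the lines differed in its use. It is the 250 bases before the RefSeq start in GRCh38.p14, chr19:16067288-16067537, plus strand, 5′ to 3′, with motif matches in capitals.
TPM4 upstream promoter: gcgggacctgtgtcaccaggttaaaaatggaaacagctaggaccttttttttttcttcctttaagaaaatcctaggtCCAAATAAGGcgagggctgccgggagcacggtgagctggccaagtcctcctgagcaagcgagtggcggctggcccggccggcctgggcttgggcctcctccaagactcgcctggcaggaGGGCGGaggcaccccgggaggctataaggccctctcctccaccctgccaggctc
The first capitals are a CArG box, the motif that serum response factor (SRF) binds, at bases 78 to 87 of the window, and the next are GGGCGG at bases 197 to 202. The same windows of 35116 RefSeq promoters, which run from 250 bases before to 50 bases after each start, were searched on both strands for 4 motifs. The CArG box was present in 1.29% of them and GGGCGG, the GC box that SP1 binds, in 45.0%. The TEAD motif CATTCC was present in 14.0%. The TATA box letters TATAAA were present in 11.5%. A CArG box reads the same way on both strands, so this 1 match counts on each, and it overlaps none of the others. Of the 8 windows of tropomyosin genes in that table, this one alone held a CArG box; the upstream starts of TPM1 and TPM3 are not among those windows and were not searched. A match is a description of the letters, and binding was not measured. SRF itself was at 12.8 CPM (9.29 to 17.2) in the ERBB2-high line, 10.7 CPM (7.46 to 14.8) in the RARRES2-high line and 7.97 CPM (5.58 to 11.0) in the FOLR1-high line.

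TPM3 came almost wholly from its internal first exon, at 99.9% in the ERBB2-high line, 100% in the RARRES2-high line after rounding and 99.9% in the FOLR1-high line. The upstream exon, which slow skeletal muscle uses, had 1.27, 0.431 and 1.70 estimated counts and no whole count. ENST00000368533, the leading short form, held 65.9% (63.3 to 68.6), 82.2% (80.6 to 83.8) and 64.2% (61.4 to 66.8) in the ERBB2-high, RARRES2-high and FOLR1-high lines. ENST00000611659 held 16.0%, 9.81% and 14.5%. ENST00000330188, with the other exon of the pair, held 5.43%, 2.69% and 5.70%, and ENST00000328159, with an earlier last coding exon, 3.83%, 1.68% and 5.18%. The RARRES2-high line thus gave more of TPM3 to the leading form and less to each other form named.

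These TPM3 differences rest on estimates that were seldom whole. Of the TPM3 counts only 4.83%, 2.54% and 6.66% were whole in the ERBB2-high, RARRES2-high and FOLR1-high lines. ENST00000368533 had 54 of 60 whole counts in the ERBB2-high line (79.5 to 96.2%), 55 of 57 in the RARRES2-high line (96.5%, 87.9 to 99.6) and 73 of 84 in the FOLR1-high line (86.9%, 77.8 to 93.3). The 3 shares are above those of all counts, and their intervals overlap. The difference of ENST00000368533 between the RARRES2-high and ERBB2-high lines was 16.3 points (13.2 to 19.4) over all barcodes, 8.32 points (4.15 to 12.9) in barcodes with at least 5 TPM3 counts and -7.12 points (-19.7 to 7.37) in those with 1.

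**Figure D3:**
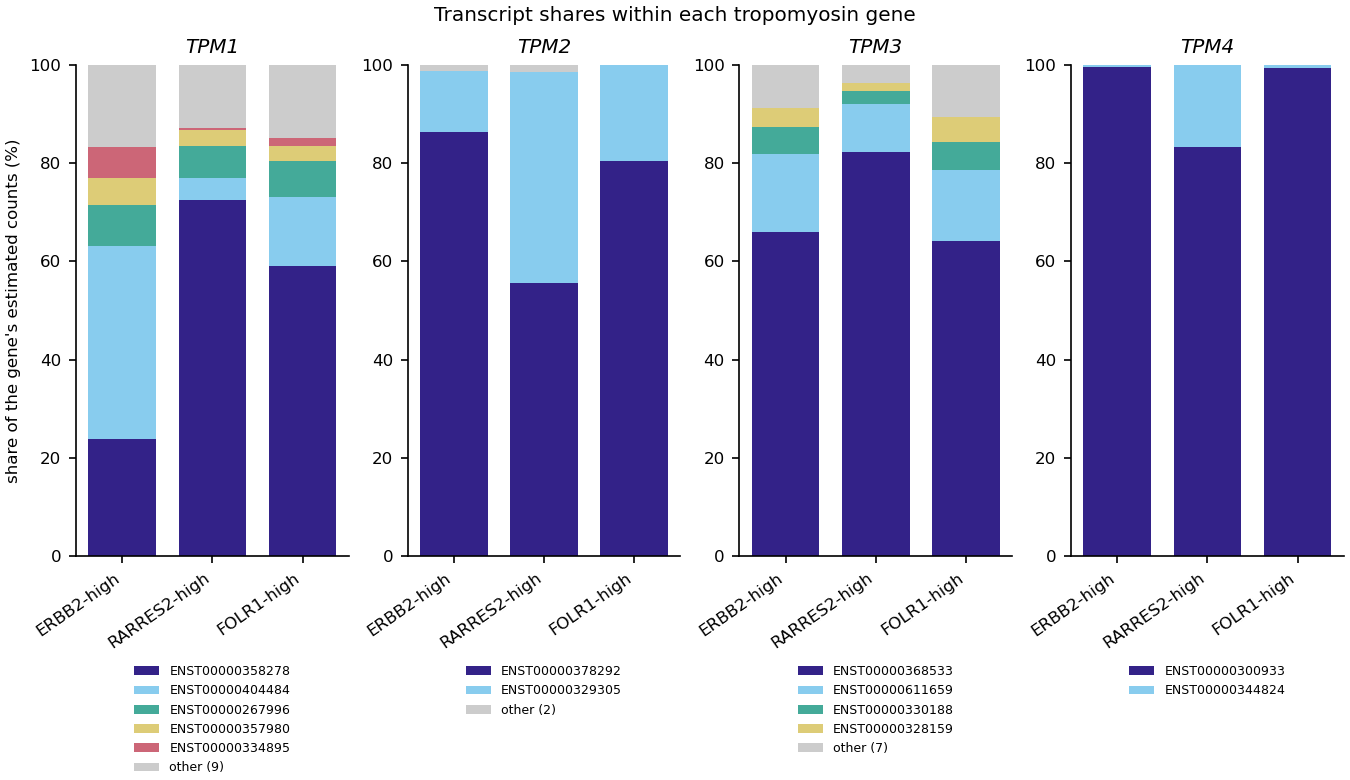
Share of each gene's estimated counts held by each transcript, stacked to 100%, in the 3 lines; transcripts under 5% in every line are joined in grey, with their number in the key. ENST00000358278 of TPM1 grows from 23.8% in the ERBB2-high line to 72.5% in the RARRES2-high line, ENST00000329305 of TPM2 from 12.4% to 42.9%, and ENST00000344824 of TPM4 is visible in the RARRES2-high line at 16.7%.

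**Figure D4:**
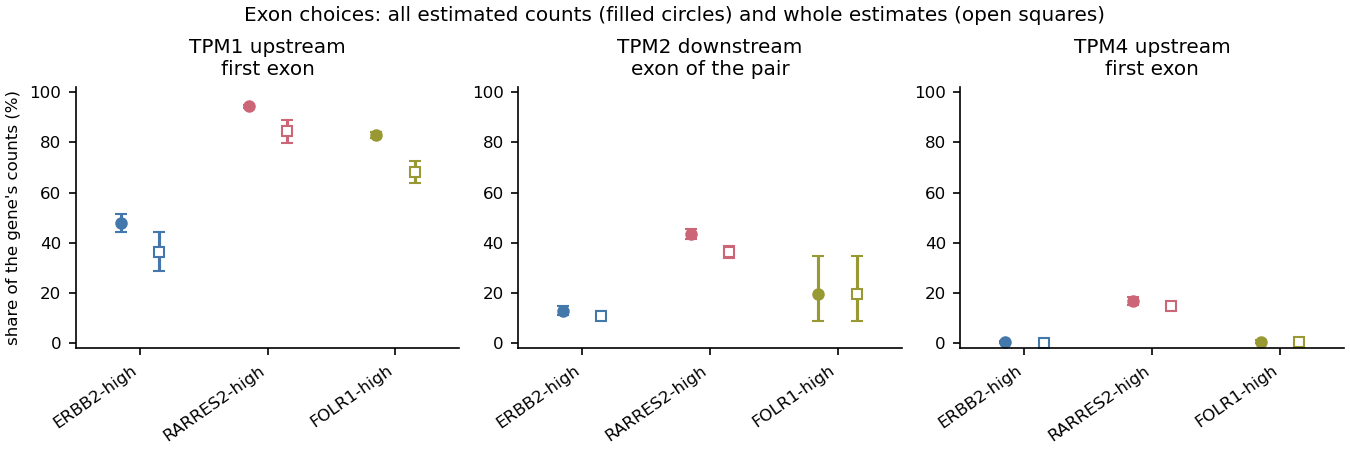
Share of the gene's counts with the named exon choice in each line, with exact Clopper-Pearson 95% intervals, for all estimated counts (filled circles) and for whole counts (open squares). The RARRES2-high line is the highest in both measures for TPM1 and TPM4 and is above the ERBB2-high line for TPM2.

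Over the family, transcripts from an upstream first exon, which all 4 TPM2 transcripts have, held 38.9% (37.5 to 40.2) of tropomyosin counts in the ERBB2-high line, 60.3% (59.3 to 61.2) in the RARRES2-high line and 56.0% (54.8 to 57.2) in the FOLR1-high line. In the ERBB2-high line most of that share was TPM2, and in the FOLR1-high line nearly all was TPM1. Genes with at least 2 listed transcripts and 50 counts in both lines were called where a share differed by at least 20 points. TPM1 and TPM2 were called between the RARRES2-high and ERBB2-high lines, where 2.45% of genes were. TPM1 was called between the ERBB2-high and FOLR1-high lines, where 2.21% were. That call rests on ENST00000358278, which held 10.6% of whole counts in the ERBB2-high line and 23.5% in the FOLR1-high line. None was called between the RARRES2-high and FOLR1-high lines, where 3.25% were. TPM2 had too few counts in the FOLR1-high line to be compared in either of its pairs.

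Within the FOLR1-high line, TPM1 differed between barcodes led by CXCL14, a chemokine, and barcodes led by DEFB1, a defensin. Barcodes with at least 2 counts of these genes together, of which 1 gene held at least 75%, gave 217 CXCL14-leading barcodes (median depth 4939) and 130 DEFB1-leading barcodes (median depth 6227.5). TPM1 was at 1777 CPM (1702 to 1854) in the first and 487 CPM (442 to 535) in the second, a ratio of 3.65 (3.29 to 4.05). The upstream first exon held 88.2% (86.7 to 89.5) and 72.2% (67.6 to 76.2) of the estimated TPM1 counts. In the whole FOLR1-high line that share was 64.8% in barcodes with 1 TPM1 count and 85.7% in those with 5 or more. The 2 groups were not matched by TPM1 counts, so a difference in form apart from level was not tested. In level, TPM3 and TPM4 went the other way from TPM1, at 0.713-fold (0.600 to 0.846) and 0.731-fold (0.600 to 0.890) of the DEFB1-leading level. All levels of this split were scaled by total counts, and other scalings of it were not tested. TPM3 was at 223 and 313 CPM and TPM4 at 173 and 236 CPM. TPM2 had 10 and 2 counts, a ratio of 3.78 whose interval (0.805 to 35.5) leaves its direction undetermined at this depth. Whether these barcodes are states of 1 line or hold more than 1 source was not tested.

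**Figure D5:**
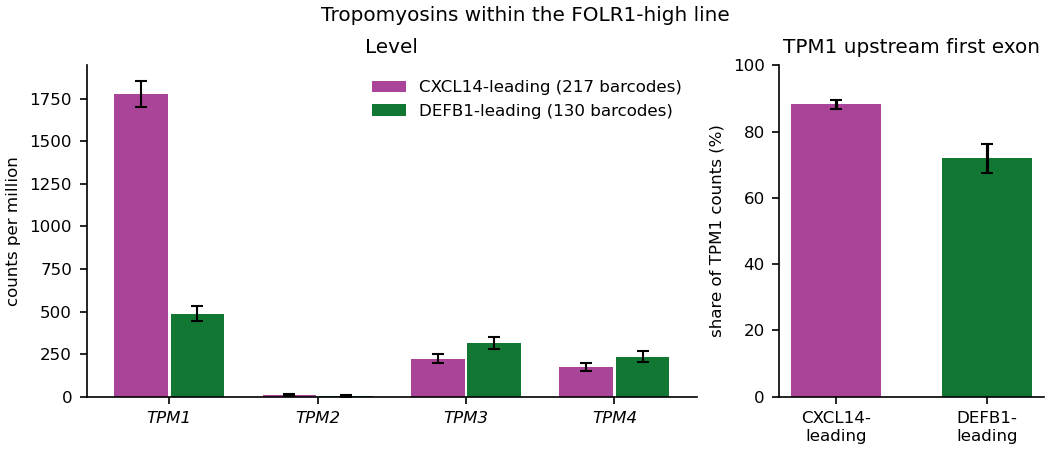
Level (CPM, exact Poisson 95% intervals) of the tropomyosin genes in CXCL14-leading and DEFB1-leading barcodes of the FOLR1-high line, and the share of TPM1 counts from the upstream first exon (exact Clopper-Pearson 95% intervals). TPM1 is at 1777 and 487, and its upstream share at 88.2% and 72.2%.

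Across barcodes within a line the tropomyosins moved together only weakly. Pearson's r of log2 scaled counts is given as a description, since barcodes share a library and differ in depth. TPM3 and TPM4 gave 0.22, 0.28 and 0.16 in the ERBB2-high, RARRES2-high and FOLR1-high lines. TPM1 and TPM2 gave -0.17, 0.36 and -0.08, so the sign differed between the lines. Among 2777 genes with at least 0.2 counts per barcode in every line, the mean r over the 3 lines was highest for TPM1 with PLK2 (0.25), VIM (0.24) and FSTL1 (0.23), and for TPM2 with LGALS1 (0.25), PARK7 and SH3BGRL3 (both 0.13). TPM2 itself is under that level in the FOLR1-high line, with 41 counts in 765 barcodes, so its values there say little. For TPM3 it was highest with TPM4 (0.22), ACTB (0.21) and HMGB1 (0.20), and for TPM4 with ACTB (0.23), TPM3 (0.22) and EZR (0.20). VIM, the filament protein vimentin, gave 0.24, 0.46 and 0.00 with TPM1 in the ERBB2-high, RARRES2-high and FOLR1-high lines, so that mean rests on the first pair.

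Of 40 listed actin partners, 37 had enough counts to be compared and 21 passed 2-fold in at least 1 pair of lines, which 34.6% of all genes compared did. Against the FOLR1-high line, 13 of 35 were higher in the RARRES2-high line and 2 lower, beside 13.5% and 7.23% of all genes. In the ERBB2-high against the FOLR1-high line 7 of 35 were higher and 5 lower, beside 13.7% and 5.50%. In the RARRES2-high against the ERBB2-high line 7 of 37 were higher and 2 lower, beside 8.41% and 11.0%. The median log2 ratio of the list was 0.19 for RARRES2-high over ERBB2-high, 0.72 for RARRES2-high over FOLR1-high and 0.54 for ERBB2-high over FOLR1-high, beside the medians of all genes of -0.15, 0.13 and 0.31. PFN2, a profilin that binds actin monomers, was at 200, 594 and 56.3 CPM in the ERBB2-high, RARRES2-high and FOLR1-high lines. MYL9, a regulatory myosin light chain, was at 1.45, 23.4 and 90.6 CPM. CALD1, caldesmon, which binds tropomyosin and actin, was at 113, 649 and 229 CPM. ACTN1, the crosslinker alpha-actinin, was at 246, 159 and 48.9 CPM. PFN2 and CALD1 were highest in the RARRES2-high line, as TPM2, TPM3 and TPM4 were, while MYL9 and ACTN1 were highest elsewhere.

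Of 31 listed splicing regulators, 3 had no entry of their own, 19 could be compared and 5 passed 2-fold in at least 1 pair, again beside 34.6% of all genes, so the count does not set the list apart. QKI, which binds RNA near alternative exons, was at 149, 73.1 and 45.4 CPM in the ERBB2-high, RARRES2-high and FOLR1-high lines. MBNL1, a muscleblind splicing factor, was at 72.3, 101 and 29.2 CPM. HNRNPA1, which often represses exons, was at 501, 330 and 883 CPM. CELF2, a factor of muscle and brain splicing, had 1, 54 and 0 counts. These 4 had the largest ratios. The median log2 ratio of the list was -0.27, 0.22 and 0.47 for RARRES2-high over ERBB2-high, RARRES2-high over FOLR1-high and ERBB2-high over FOLR1-high.

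Of 13 listed regulators of tropomyosin and contractile gene transcription, 1 had no entry of its own, 12 could be compared and 4 passed 2-fold in at least 1 pair, close to the 34.6% of all genes. TGFB1, the growth factor, was at 26.7, 26.1 and 0.664 CPM in the ERBB2-high, RARRES2-high and FOLR1-high lines. SMAD3, which carries its signal to the nucleus, was at 25, 86.1 and 45.6 CPM. YAP1, a co-activator, was at 66.2, 22.8 and 31.2 CPM, and TEAD1, the DNA-binding factor it works with, at 64.8, 75.5 and 28.6 CPM. SMAD3 was highest in the RARRES2-high line. TEAD1 had its highest value and YAP1 its lowest there, but with overlapping intervals. The TEAD1 interval overlapped that of the ERBB2-high line, and the YAP1 interval that of the FOLR1-high line. The median log2 ratio of the list was -0.07, 0.26 and 0.36 in the order used for the splicing list.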

How the data were processed

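One PromethION single-cell library of the pooled lines was analysed, with the barcode list of the Illumina library. The authors deposited estimated counts per transcript and barcode, not normalised, with a list of transcript positions. Per the submitters' processing notes the build was GRCh38, and Cell Ranger 6.0.1 is named. Aligner, annotation release and whether molecular identifiers were collapsed were not given in the sources used here. Intervals cover counting error only.

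Counts were summed per gene entry and line and scaled to CPM of the line's total. Intervals are exact Poisson (levels), exact conditional binomial (ratios), Clopper-Pearson (shares, with estimates rounded) and Newcombe (differences). Each of the 31 transcripts was classed by its coding exons in GENCODE release 29, and promoters came from RefSeq GRCh38.p14. Scrublet (scanpy 1.11.5, expected rate 0.02) marked 77 barcodes as doublets; they were left out only as an alternative, and 30 were in a line. Calculations used Python 3.11.15, numpy 2.4.6, scipy 1.17.1 and pandas 2.3.3, and the counting steps were tested on simulated data. Members, transcripts with at least 5% of their gene in a line, the 3 most alike genes and the 4 list genes with the largest ratio were named. The members and lists were chosen with earlier results of these data known. The 9 tropomyosin pseudogene entries held 1 count, and no entry joined a member with another gene.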

Additional observations from a re-analysis of the deposited data

How the results depend on the processing

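No paired analysis was possible because each platform held 1 library. With 1 library a difference between lines is not separated from a difference between the cultures pooled. Of 360 values under other settings, 274 stayed within the counting interval (for counts of genes, within 1.5 times), 77 moved outside it and 9 reversed a difference whose interval lay on 1 side of none. A further 12 changed sign where the interval of the reported difference held 0, and are counted by their distance only. The 2 settings added after seeing the data were barcodes with at least 5 counts of the gene, and 90% line genes without doublets; no multi-gene entry held a member, so adding such entries gave no value. Where a cause is not given by the setting itself, the cause was not tested.

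Scaling moved levels. With median-of-ratios scaling TPM1 in the RARRES2-high over the ERBB2-high line was 5.55-fold, and over the FOLR1-high line TPM3 was 2.08-fold, TPM4 2.69-fold and TPM1 0.93-fold, and TPM3 in the ERBB2-high over the FOLR1-high line was 0.953-fold. Without mitochondrial and ribosomal protein genes those FOLR1-high ratios were 1.91, 2.47, 0.854 and 0.9998. TPM4 was 2.83-fold in barcodes of at least 5000 counts.

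The RARRES2-high minus ERBB2-high difference of the TPM1 upstream exon was 41.2 points at 2 or more TPM1 counts, 52.8 at 1, 28.5 at 5 or more and 55.0 as a mean over barcodes. For ERBB2-high minus FOLR1-high it was -29.9, -38.9, -18.5 and -42.1, against -35.2 over all counts. That of ENST00000358278 was 22.6 for whole counts, 44.3 at 2 or more, 30.2 at 1 and 34.3 at 5 or more. The TPM1 pair exon, -10.3 points for RARRES2-high minus ERBB2-high, was 10.7 for whole counts and 0.497 at 1 count, and for ERBB2-high minus FOLR1-high it was -5.04 for whole counts. The TPM2 downstream exon differed by 25.3 points for whole counts and 13.3 at 1 count (-3.35 to 29.5), and the TPM4 upstream exon by 14.6, by 13.3 at 1 count and by 14.7 as a mean over barcodes. ENST00000368533 of TPM3 differed by 6.49 points for whole counts, 13.1 at 2 or more, 8.32 at 5 or more and -7.12 at 1, and from the FOLR1-high line by -8.12 at 1.

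Of the lists, 10 actin partners passed 3-fold. Of the splicing regulators 11 passed 1.5-fold, 0 passed 3-fold, and 2 passed 2-fold with 50 CPM added. Of the transcription regulators the numbers were 7, 1 and 0. Of all genes 64.9% passed 1.5-fold, 13.0% passed 3-fold and 10.2% passed 2-fold with 50 CPM added. Depth limits TPM2 in the FOLR1-high line, with 41 counts, and the low share of whole estimates limits TPM3.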

Other observations

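Barcodes in no line are not compared with the lines. The 243 of them with at least 1000 counts held TPM1 at 720 CPM (679 to 763), TPM2 at 461 CPM (428 to 496), TPM3 at 546 CPM (510 to 583) and TPM4 at 472 CPM (439 to 507). The upstream first exon held 86.3% of TPM1 (84.2 to 88.3) and 10.9% of TPM4 (8.80 to 13.4) in them.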
